A study of Mus musculus with 10 samples.

Results

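Tight junctions are the belts that seal neighbouring epithelial or endothelial cells to each other, and the genes described here are 10 of their parts: the claudins Cldn1, Cldn2, Cldn3, Cldn4, Cldn5, Cldn7, Cldn10 and Cldn18, occludin (Ocln) and ZO-1 (Tjp1). They were picked by symbol, through the Ensembl identifiers of the count files in the GRCm38 annotation, with earlier results of these data known. All 10 were found among the 53465 genes listed, and all 10 were among the 15695 that passed the filter on low counts. RNA came from whole lung of BALB/c mice, 10 samples in 2 groups of 5. Controls are described as untreated, and nothing is said of a vehicle. The other mice received 1 µg of the cytokine IL-33 in 35 µL through the nose once a day for 5 days, with lungs taken 24 hours after the last dose. Age and sex are not given in the labels. Nothing in the labels gives each sample its own mouse, so p-values measure the spread between these samples, part of which may be technical.

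Claudins are small proteins that cross the membrane and pair with claudins of the next cell, and which claudins a cell makes sets how tight its junction is and which ions pass. Some, such as Cldn1, Cldn3, Cldn4, Cldn5 and Cldn18, mainly seal, while Cldn2 and forms of Cldn10 build pores for ions. Occludin is a membrane protein of the same strands, and ZO-1 is the scaffold inside the cell that ties them to actin. In lung, Cldn18 is the main alveolar claudin, Cldn3 and Cldn4 are best known from alveolar type 2 cells, Cldn7 is widespread in epithelium, Cldn10 marks club cells of the airway, and Cldn5 is the chief claudin of endothelium.

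RefSeq (build GRCm38.p6) gave start sites for all 10 genes, 14 in all. Each window of 250 bases before a start was searched on both strands for letters bound by factors of cytokine signalling and of lung epithelium. The windows shown belong to the 5 genes whose control and IL-33 values do not overlap, with both Cldn10 starts, because the counts add up the transcripts of a gene and cannot say which start was used. Cldn18 has a second start downstream, known from stomach, and Ocln a second one inside its first transcript; neither is printed. The Tjp1 window lies inside the annotated gene, before the start that RefSeq gives. Capitals mark matches on either strand, here to CAAGTG (known for NKX2-1, the lung lineage factor) and to the GC box GGGCGG.
Cldn18, upstream start, chr9:99717268-99717517, minus strand: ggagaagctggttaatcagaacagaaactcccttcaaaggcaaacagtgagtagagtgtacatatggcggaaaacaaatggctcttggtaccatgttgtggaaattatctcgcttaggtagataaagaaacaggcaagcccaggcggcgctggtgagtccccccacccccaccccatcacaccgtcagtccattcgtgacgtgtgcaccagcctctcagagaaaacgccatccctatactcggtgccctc
Ocln, upstream start, chr13:100552719-100552968, minus strand: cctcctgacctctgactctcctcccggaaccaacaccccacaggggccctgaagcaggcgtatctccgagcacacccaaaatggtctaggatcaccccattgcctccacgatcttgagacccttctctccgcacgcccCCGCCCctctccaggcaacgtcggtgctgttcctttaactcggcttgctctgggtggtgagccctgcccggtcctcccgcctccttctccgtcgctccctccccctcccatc
Tjp1, chr7:65371245-65371494, minus strand: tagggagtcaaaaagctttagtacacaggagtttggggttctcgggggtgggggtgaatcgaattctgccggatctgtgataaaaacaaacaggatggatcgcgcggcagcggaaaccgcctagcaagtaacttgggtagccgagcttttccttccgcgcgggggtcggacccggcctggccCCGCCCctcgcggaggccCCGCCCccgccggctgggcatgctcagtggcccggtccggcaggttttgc
Cldn1, chr16:26371840-26372089, minus strand: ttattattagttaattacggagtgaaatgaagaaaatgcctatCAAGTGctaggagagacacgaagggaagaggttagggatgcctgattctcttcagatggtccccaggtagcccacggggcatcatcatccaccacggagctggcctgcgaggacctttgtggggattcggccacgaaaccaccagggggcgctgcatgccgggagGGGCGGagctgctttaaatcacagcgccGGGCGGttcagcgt
Cldn10, upstream start, chr14:118787621-118787870, plus strand: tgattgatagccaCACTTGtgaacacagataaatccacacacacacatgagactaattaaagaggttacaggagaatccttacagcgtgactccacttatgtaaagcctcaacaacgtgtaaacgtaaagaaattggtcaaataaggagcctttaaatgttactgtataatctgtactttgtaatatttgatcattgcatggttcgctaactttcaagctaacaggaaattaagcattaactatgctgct
Cldn10, downstream start, chr14:118854700-118854949, plus strand: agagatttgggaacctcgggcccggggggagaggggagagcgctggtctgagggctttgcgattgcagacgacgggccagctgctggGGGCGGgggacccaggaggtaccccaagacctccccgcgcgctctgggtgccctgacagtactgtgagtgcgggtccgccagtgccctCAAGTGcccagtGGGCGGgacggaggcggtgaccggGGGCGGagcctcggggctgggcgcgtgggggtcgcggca

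The windows printed differ in their make-up. The upstream Cldn10 window holds 36.0% G and C and the downstream one 72.4%, against a median of 52.4% over 32851 windows of the same length. CAAGTG lay in 5 of the 14 windows and in 11.6% of all windows, and GGGCGG in 9 of the 14 and in 32.7% of all. The STAT motif (TTC and GAA with any 4 bases between) lay in 1 of the 14, the second Ocln start, against 5.85% of all. There it covers a CAGGTG, an E-box of Snail and ZEB repressors. CAGGTG lay in 3 of the 14 windows (17.2% of all), AACCNGTT of grainyhead-like factors in 1, before Cldn5 (1.79%), TATAAA in 1, before Cldn2 (12.4%), and TGTTTAC of FOXA factors in 0 (3.17%). The upstream Cldn18 window holds no match to any of the 7.

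In IL-33 lungs, Cldn18, Ocln and Tjp1 fell to less than 0.42 of their control level, Cldn3 and Cldn7 fell slightly, and Cldn1, Cldn2 and Cldn10 rose about 2-fold. Cldn4 and Cldn5 did not pass the test. By edgeR's quasi-likelihood test at a Benjamini-Hochberg adjusted p of 0.05, 3 of the 10 genes were higher and 5 lower, where 69.9% of all tested genes passed, 35.1% as higher and 34.8% as lower. The share called is therefore near that of all genes. With no overlap between control and IL-33 values stood 5 of the 10 (Cldn18, Ocln and Tjp1 lower, Cldn1 and Cldn10 higher), against 56.5% of all tested genes (29.1% higher and 27.4% lower). Levels are CPM scaled by TMM factors, as mean ± SD of 5 libraries, and a positive log2 fold change means higher in IL-33 lungs, with its SE after the sign ±. In lung tissue, fewer cells of a type and less RNA per cell cannot be told apart.

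**Figure D1:**
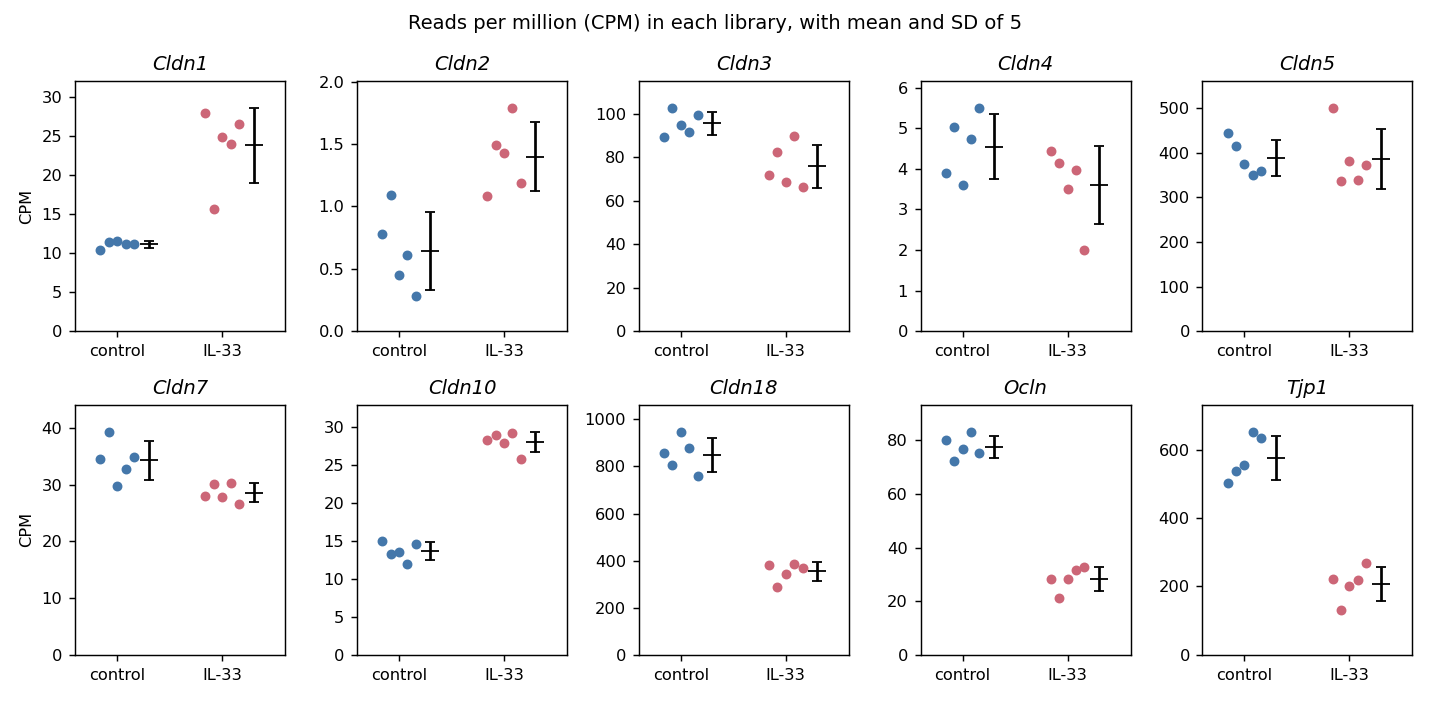
CPM of each tight junction gene in the 5 control (blue) and 5 IL-33 (red) libraries, each panel on its own linear axis from 0, with the mean and SD beside the points. Points are in replicate order; the groups do not overlap for Cldn1, Cldn10, Cldn18, Ocln and Tjp1.

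Cldn18, the sealing claudin of the alveolus (ENSMUSG00000032473, chromosome 9, 99689461 to 99717267, minus strand), was the most read claudin in controls. Its level was 855, 805, 948, 879 and 758 CPM in control libraries 1 to 5 and 379.8, 289, 345, 387 and 370.0 CPM in IL-33 libraries 1 to 5. Every IL-33 library lay below every control, and the lowest control was above the highest IL-33 library by a wide margin. The mean went from 849 ± 72.4 to 354 ± 40.0 CPM (log2 fold change -1.26 ± 0.09, edgeR adjusted p = 1.38e-07). The other genes used as markers of alveolar type 1 cells moved with it: 10 of 11 were lower, none higher, and their summed level was 6373 to 7000.0 CPM in controls and 2615 to 3467 in IL-33 lungs. Their part in the fall of Cldn18 was not tested.

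Cldn3 and Cldn4 are sealing claudins whose genes lie side by side on chromosome 5 (Cldn4 at 134945119 to 134946934, minus strand, and Cldn3 at 134986214 to 134987472, plus strand). Cldn3 stood at 89.5, 103, 94.7, 91.8 and 99.3 CPM in controls and at 72.0, 82.3, 68.6, 89.6 and 66.3 CPM after IL-33. The groups meet at one point, IL-33 library 4 against control 1, and the fall was small as counted (log2 fold change -0.33 ± 0.09, edgeR adjusted p = 0.00352) and -0.84 with the trend on exon length and GC content, described below, removed. Of 10 markers of alveolar type 2 cells, 7 were lower and 2 higher, with a median log2 fold change of -0.65 and a summed level of 20150 to 23120 CPM in controls and 17400 to 20830 in IL-33 lungs. Their part in the fall of Cldn3 was not tested. Cldn4 was scarce, at 3.89, 5.03, 3.60, 4.73 and 5.50 CPM in controls and 4.44, 4.13, 3.50, 3.97 and 2.01 CPM in IL-33 lungs. These values overlap, and only IL-33 library 5 lies far below the controls. Its log2 fold change of -0.34 ± 0.23 had an edgeR adjusted p of 0.168, and the 95% interval by limma-voom ran from -0.88 to 0.09, so a fall as large as that of Cldn3 or larger is inside it. Cldn4 rested on 27 to 58 reads per library.

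Cldn7, which in epithelium also lies along the lateral membrane (chromosome 11, 69964779 to 69967885), went the same way as Cldn3. Control libraries held 34.6, 39.4, 29.7, 32.8 and 34.9 CPM and IL-33 libraries 28.0, 30.2, 27.9, 30.4 and 26.7 CPM. Control 3 was the only control under any IL-33 value. The log2 fold change was -0.26 ± 0.07 (edgeR adjusted p = 0.0114), the smallest of the 8 called.

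Occludin (chromosome 13, 100496507 to 100552718, minus strand) showed tight groups far apart. Ocln held 80.0, 72.4, 76.9, 83.3 and 75.2 CPM in controls and 28.1, 21.2, 28.1, 31.8 and 32.7 CPM in IL-33 lungs. It fell by 1.44 on the log2 scale (SE 0.12, edgeR adjusted p = 8.41e-08), to 0.368 of the control level. Tjp1, the ZO-1 gene (chromosome 7, 65296165 to 65527781, minus strand), fell as far: controls held 502.5, 537.5, 553, 652.5 and 634 CPM and IL-33 lungs 221, 132.5, 200.4, 218 and 269 CPM. The log2 fold change was -1.47 ± 0.18 (edgeR adjusted p = 2.29e-06). ZO-1 is made by epithelial and endothelial cells alike, and markers of both moved: of 11 endothelial genes other than Cldn5, 8 were lower and none higher (summed level 6708 to 7397 CPM in controls, 3002 to 4094 in IL-33 lungs), and of 9 pan-epithelial genes other than Cldn7, 5 were lower and 2 higher (1184 to 1331 CPM, then 945 to 1143). Their part in the falls of Tjp1 and Ocln was not tested.

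Of all tested genes, 8.79% were called and at least 2-fold lower; Cldn18, Ocln and Tjp1 were among them. IL-33 library 2 was the lowest IL-33 library for 5 of the 10 genes (Cldn1, Cldn5, Cldn18, Ocln and Tjp1), and library 5 for 4 others (Cldn3, Cldn4, Cldn7 and Cldn10). Leaving out library 2 gave -1.19 for Cldn18, -1.35 for Ocln and -1.34 for Tjp1, each still called.

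Cldn10, a claudin of club cells with pore-forming variants (chromosome 14, 118787908 to 118875489), rose in every IL-33 library. Controls held 15.0, 13.2, 13.6, 12.0 and 14.6 CPM and IL-33 lungs 28.3, 29.0, 27.9, 29.3 and 25.9 CPM. The highest control is far under the lowest IL-33 value, and the log2 fold change was 1.03 ± 0.06 (edgeR adjusted p = 2.14e-07). Among 7 tested club cell genes other than Cldn10, 5 were lower and 2 higher, with a summed level of 21050 to 23030 CPM in controls and 12940 to 14810 in IL-33 lungs. Most of that sum is Scgb1a1, with a mean of 17090 CPM in controls and 12040 CPM in IL-33 lungs. All 10 goblet cell genes rose (58.0 to 427 CPM in controls, 1335 to 4113 in IL-33 lungs). Their part in the rise of Cldn10 was not tested.

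Cldn1, a sealing claudin of airway and skin epithelium that is strong in basal cells (chromosome 16, 26356642 to 26371841, minus strand), was steady in controls and more spread after IL-33. Its level was 10.4, 11.4, 11.6, 11.2 and 11.2 CPM in controls and 27.9, 15.6, 24.9, 24.0 and 26.6 CPM in IL-33 lungs. IL-33 library 2 sits between the controls and the other 4 IL-33 libraries. Cldn1 rose by 1.10 on the log2 scale (SE 0.15, edgeR adjusted p = 1.02e-05), and by 1.22 without that library. Of 5 tested basal cell genes 3 rose and none fell, from a summed 3.94 to 15.9 CPM in controls to 23.0 to 31.8 CPM. Their part in the rise of Cldn1 was not tested.

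Cldn2, the claudin that forms cation and water pores in leaky epithelium (chromosome X, 139800828 to 139811386), was barely present, with 3 to 23 reads per library. It held 0.777, 1.09, 0.451, 0.613 and 0.285 CPM in controls and 1.08, 1.49, 1.43, 1.79 and 1.19 CPM in IL-33 lungs. Control 2 and IL-33 library 1 meet. The log2 fold change was 1.10 ± 0.30 (edgeR adjusted p = 0.00610), and 0.91 to 1.32 when single libraries were left out. A call of at least 2-fold higher was made for 14.5% of tested genes.

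Cldn5, the endothelial claudin (chromosome 16, 18776847 to 18778262), did not pass the test. It held 444, 415, 375, 349 and 359.6 CPM in controls and 500.5, 337, 381, 339 and 372 CPM in IL-33 lungs, with IL-33 library 1 above all others and the rest mixed. The log2 fold change was -0.01 ± 0.12 (edgeR adjusted p = 0.947), with a 95% interval by limma-voom of -0.25 to 0.22. Cdh5, the endothelial cadherin of the neighbouring adherens junction, fell over the same libraries from 1312 ± 96.8 to 435 ± 68.1 CPM (edgeR adjusted p = 6.71e-08).

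Exon length bears on several of these values. Across all genes, those with short exons were higher in IL-33 libraries: cut into 10 classes of exon length, the class with the shortest exons (48 to 1527 bases) had a median of 0.72 on the log2 scale, and the longest class one of -0.31. Cldn3 (1259 bases) and Cldn5 (1416) belong to the shortest class, and Cldn4 (1816) and Cldn7 (1948) to the next, whose median was 0.36. Among the 891 genes of like length and like GC content (5 classes of each) as these 4 claudins the median was 0.48. With each library's trend on length and GC content removed, Cldn5 stood at -0.53 (edgeR adjusted p = 0.00102) and Cldn4 at -0.84 (edgeR adjusted p = 0.00294), both then called. Cldn3 moved to -0.84 and Cldn7 to -0.70, while Cldn18 (-1.33), Ocln (-1.56), Tjp1 (-1.34), Cldn1 (1.04) and Cldn2 (0.89) moved little and Cldn10 went to 0.68. In that fit 3 of the 10 genes were higher and 7 lower, against 29.4% and 39.0% of all genes (68.4% called in either direction), and the median of all genes was -0.09. Whether the length trend comes from the tissue or the libraries was not tested.

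**Figure D2:**
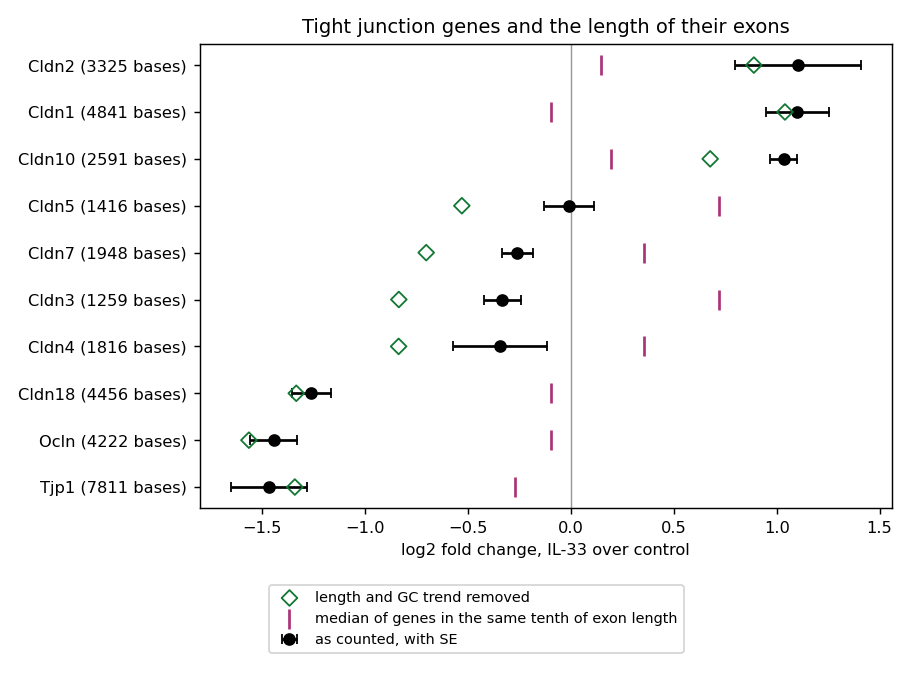
Log2 fold change of each gene (black points, bars are the SE), the same after each library's trend on exon length and GC content was removed (green diamonds), and the median of all tested genes in the same of 10 exon length classes (purple ticks). Cldn3, Cldn4, Cldn5 and Cldn7, with exons of 1259 to 1948 bases, lie below their tick and move further down.

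Levels of different genes can be compared only per length, as CPM divided by exon kilobases (RPKM). In controls the order was Cldn5 (274 ± 28.1), Cldn18 (190.5 ± 16.2), Cldn3 (75.9 ± 4.31), Tjp1 (73.8 ± 8.26), Ocln (18.4 ± 0.994), Cldn7 (17.6 ± 1.80), Cldn10 (5.28 ± 0.457), Cldn4 (2.51 ± 0.436), Cldn1 (2.30 ± 0.0948) and Cldn2 (0.194 ± 0.0937 RPKM). Libraries overlapped between Cldn3 and Tjp1, between Ocln and Cldn7 and between Cldn4 and Cldn1. In IL-33 lungs Cldn5 kept the first place at 272 ± 47.3 RPKM, Cldn18 at 79.5 ± 8.97 overlapped with Cldn3 at 60.2 ± 7.85, and Ocln at 6.72 ± 1.07 stood under Cldn7 (14.7 ± 0.822) and Cldn10 (10.8 ± 0.526 RPKM). Cldn1 (4.92 ± 0.997 RPKM), which overlapped with Ocln, stood above Cldn4 (1.99 ± 0.528).

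The make-up of claudin mRNA differed between the groups. Of the RPKM summed over 27 claudin genes, Cldn5 made up 43.9% to 50.6% in controls and 53.5% to 65.2% in IL-33 lungs, and Cldn18 30.0% to 35.9% and 15.6% to 19.4%. The control and IL-33 ranges of each do not overlap. Cldn3 stayed in one range, 11.5% to 14.4% and 10.6% to 15.9%. Cldn10 went from 0.904% ± 0.0802 to 2.38% ± 0.262 and Cldn1 from 0.395% ± 0.0294 to 1.07% ± 0.176. The sum itself was 585 ± 29.2 RPKM in controls and 458 ± 48.6 in IL-33 lungs. Shares and sum use levels as counted, so the length trend between the groups enters them. With it removed Cldn5 stood at -0.53, Cldn18 at -1.33 and Cldn3 at -0.84 (log2). These shares are given without a test, since they are made of the genes chosen, and the order of Cldn5 and Cldn18 depends on the length used: per coding length Cldn18 led controls with 54.1% against 30.0% for Cldn5, and in IL-33 lungs Cldn5 led with 44.1% against 33.6%.

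**Figure D3:**
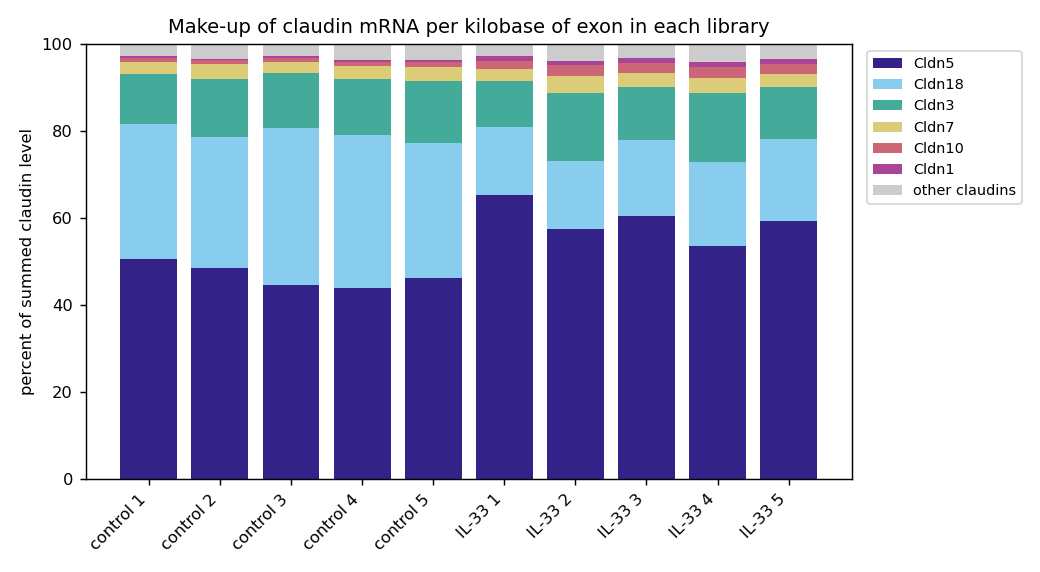
Share of each claudin in the summed claudin level per kilobase of exon, 1 bar per library. Cldn5 (dark blue, bottom) takes 43.9% to 50.6% in controls and 53.5% to 65.2% in IL-33 libraries, while Cldn18 (light blue) takes 30.0% to 35.9% and 15.6% to 19.4%.

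Members were also set against a single gene of cells in which they are known. These partners do not stand for their marker lists: Ager had a log2 fold change of -0.56 where the median of the 11 type 1 markers was -1.42, below the -1.26 of Cldn18. Sftpc had -0.05, where that of the 10 type 2 markers was -0.65. Epcam, called higher, had 0.32, where that of the 9 pan-epithelial markers was -0.23, so ratios to Epcam are lower than the member's own change. The ratio of Cldn18 to Ager, the receptor gene typical of alveolar type 1 cells, was 0.238 ± 0.00449 in controls and 0.147 ± 0.0163 after IL-33, both per length, and Cldn18 to Sftpc, the type 2 surfactant gene, went from 0.0186 ± 0.000388 to 0.00806 ± 0.000777. Ocln to Epcam, the epithelial adhesion gene, went from 0.647 ± 0.0553 to 0.190 ± 0.0351, and Cldn7 to Epcam from 0.619 ± 0.0627 to 0.413 ± 0.0172. Tjp1 to Cdh1, E-cadherin, went from 0.929 ± 0.119 to 0.439 ± 0.102. None of these 5 ratios overlapped between the groups. The ratios of Cldn18 to Ager (0.617 of control), Cldn18 to Sftpc (0.433) and Tjp1 to Cdh1 (0.472) lay nearer to control than the members' own levels (0.418 for Cldn18 and 0.362 for Tjp1). The other 2 of this direction did overlap, Cldn3 to Sftpc (0.00747 ± 0.000945 and 0.00612 ± 0.000841) and Cldn4 to Epcam (0.0884 ± 0.0173 and 0.0559 ± 0.0150).

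In the other direction, Cldn5 to Cdh5 went from 0.883 ± 0.117 to 2.67 ± 0.469 and Cldn10 to Scgb1a1, the main club cell product, from 0.000147 ± 9.57e-06 to 0.000429 ± 1.67e-05, again with no overlap. Cdh5 does not stand for its list either: its log2 fold change was -1.59, where the median of the 11 endothelial markers was -0.61. Several partners have shorter exons than the member or the reverse, so the length trend enters the ratios. With it removed, Cldn5 stood at -0.53 and Cdh5 at -1.63, Ager at -0.88, Sftpc at -0.86, Scgb1a1 at -1.67 and Epcam, called higher at 0.32 before, at -0.10 (log2). The ratios carry no test.

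**Figure D4:**
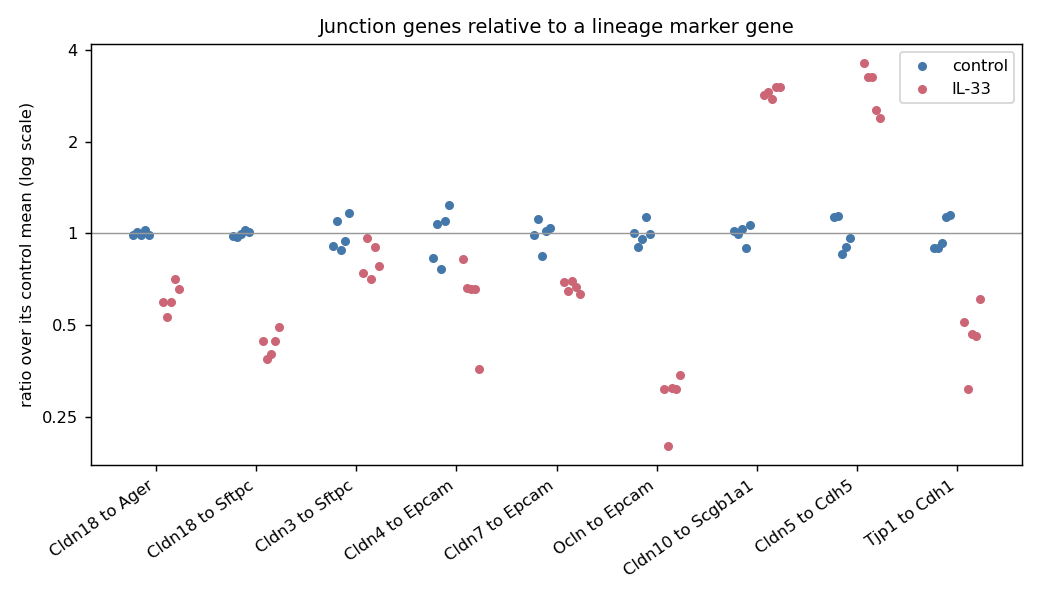
Ratio of each member to a lineage marker, both per kilobase of exon, divided by the mean ratio of controls, on a log axis, with 1 point per library (blue control, red IL-33). Cldn10 to Scgb1a1 and Cldn5 to Cdh5 lie above all controls, Cldn3 to Sftpc and Cldn4 to Epcam overlap with them, and the other 5 lie below.

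None of the remaining claudins tested was called higher. Of 22 other claudin family genes, 4 passed the filter. Cldn8, a sealing claudin of the distal kidney tubule, fell from 5.49 ± 1.20 to 1.54 ± 0.491 CPM (log2 -1.81, edgeR adjusted p = 2.29e-05), Cldn23 from 4.53 ± 0.992 to 2.07 ± 0.770 CPM (log2 -1.09) and Cldn12, a widely expressed claudin, from 31.4 ± 3.33 to 18.9 ± 2.69 CPM (log2 -0.73). Cldn15, a pore-forming claudin of gut, stood at 7.58 ± 1.17 and 7.36 ± 1.46 CPM and was not called. With the length and GC trend removed Cldn15 was called lower at -0.46 (edgeR adjusted p = 0.0278), and all 4 were then lower. Of all genes 39.0% were lower in that fit. With the low-count filter off, 2 more were called higher, Cldn13 and Cldn22, both of them scarce.

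Among 12 other membrane proteins of tight junctions, 9 were lower and none higher, with a median log2 fold change of -0.59 where that of all tested genes was -0.01. Among all tested genes 34.8% were called lower and 35.1% higher, the background for this list and those below. Bves, a cell adhesion protein of muscle and epithelium, had the largest fall (log2 -1.05, edgeR adjusted p = 0.0104) with overlapping groups, and Esam, an adhesion molecule of endothelium and the most read of the list, fell from 259 ± 13.8 to 179.6 ± 15.3 CPM. Marveld2, or tricellulin, the relative of occludin at corners where 3 cells meet, fell by 0.97, and F11r, which encodes the junction adhesion molecule JAM-A, by 0.29. Lsr, the angulin that draws tricellulin to those corners, had 0.03 and was not called. With the length and GC trend removed Lsr was called lower at -0.31 (edgeR adjusted p = 0.00193). In that fit 11 of the 12 were lower and none higher, against 39.0% and 29.4% of all genes. Marveld2, F11r and Lsr, and Tjp3 and Cgn below, were named for their kinship with the members after their values were seen.

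Scaffold and polarity proteins, which hold the strands from inside, were lower in 22 of 28 cases and higher in 5, with a median of -0.78. With the length and GC trend removed that median was -0.57. Pard6b, part of the polarity complex with atypical protein kinase C, fell from 119 ± 15.8 to 35.3 ± 9.46 CPM (log2 -1.74, edgeR adjusted p = 9.18e-07). Its relative Pard6a rose from 3.93 ± 0.841 to 6.79 ± 1.08 CPM (log2 0.78), and was not called at 0.22 with the length and GC trend removed. Arhgef2, a junctional exchange factor for RhoA, was the most read and fell by 0.89. Tjp3, which encodes ZO-3, a relative of ZO-1, rose by 0.61. Cgn, cingulin, fell by 1.44.

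Of 14 adherens junction genes 8 were lower and 1 higher (median -0.39), with Cdh5 falling most and Cdh3, P-cadherin, rising from 1.36 ± 0.101 to 2.29 ± 0.702 CPM (log2 0.76, edgeR adjusted p = 0.0106). Desmosome genes were lower in 6 of 9 tested cases and higher in 1 (median -0.51). Ppl, periplakin, fell from 138 ± 26.2 to 41.9 ± 8.88 CPM (log2 -1.71), Pkp4 by 0.86, and Pkp3, a plakophilin of simple and stratified epithelium, rose from 13.2 ± 1.61 to 32.99 ± 3.88 CPM (log2 1.31, edgeR adjusted p = 2.52e-07). Of 16 tested transcription factors known to act on epithelial junction genes, 8 were lower and 2 higher (median -0.33). The list pools repressors (Snai1, Snai2, Zeb1 and Zeb2, all lower as counted) with other factors, so its median gives no direction for their targets. With the length and GC trend removed Snai1, Snai2 and Zeb1 stayed lower. Zeb2 was then not called (-0.04, edgeR adjusted p = 0.687). Zeb1, a repressor of E-cadherin, fell by 0.99, Nkx2-1 by 0.31, from 221 ± 13.4 to 179 ± 11.3 CPM, and Elf5 rose by 0.74.

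**Figure D5:**
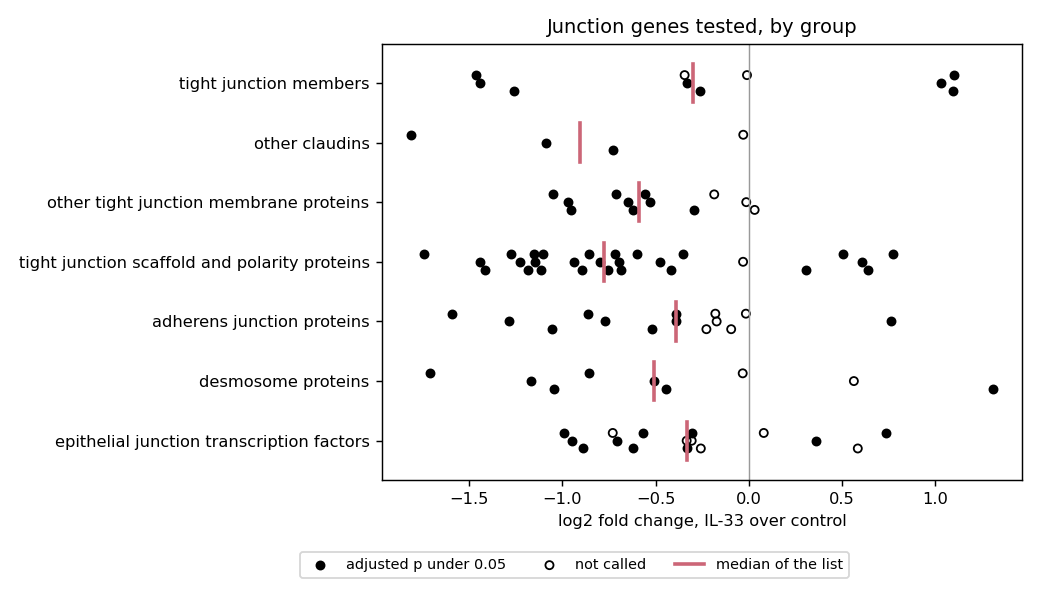
Log2 fold change of every tested junction gene, 1 row per group of genes, with filled points for an edgeR adjusted p under 0.05, open points for the rest, and a red bar at the median of each group. The medians lie between -0.91 (other claudins) and -0.30 (the 10 tight junction genes), where all tested genes had -0.01. Their order depends on the length trend. With the length and GC trend removed they ran from -1.22 (other claudins) to -0.32 (adherens junction proteins). The 10 tight junction genes then had -0.77 and all genes -0.09.

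Across the series, libraries held 7805175 to 13767118 reads in genes. The mRNA of Il33 stood at 90.0 ± 14.0 CPM in controls and 331 ± 30.9 in treated lungs. Il1rl1, which encodes the receptor of IL-33, stood at 7.09 ± 0.866 and 216 ± 34.9 CPM. Neither overlapped between the groups. These counts read lung mRNA, so they do not measure the IL-33 that was given. Reads aligned to several places made up 15.0% to 16.2% in controls and 19.97% to 22.8% in IL-33 libraries; their part in the results was not tested. Markers of lung epithelium, endothelium and leukocytes were found in every library, and no gene of the 10 marker lists was at 0 throughout. All 9 leukocyte genes rose, from a summed 574 to 988 CPM to 2095 to 2632 CPM. None of the 75-base windows of the 10 tight junction genes occurs in an annotated transcript of another gene. The read length is not named, and sequence outside transcripts was not searched. Of Cldn3's exons, 40 bases overlap the antisense gene Wbscr25 on the opposite strand, and no other member's exons overlap another gene.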

How the data were processed

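PolyA-selected lung RNA was made into stranded libraries, per the labels' protocols. The submitters' processing notes name FastQC 0.11.6, MultiQC 1.6, STAR 2.5.4b, HTSeq 0.9.1 and GRCm38; no release of the annotation, strand setting or read length is named there. The deposited files hold raw counts of reads per Ensembl gene. Rows naming no gene (10.4% to 13.7% in no feature, 0.862% to 0.945% ambiguous and 15.0% to 22.8% multiply aligned) were left out.

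Groups came from the sample titles. All 10 libraries entered 1 edgeR 4.0.16 fit (R 4.3.3; TMM, filterByExpr, group as the only term, quasi-likelihood test, Benjamini-Hochberg adjusted p at 0.05). SEs were taken over libraries on the log2(CPM + 0.1) scale, and intervals from limma 3.58.1 voom. Exon lengths, positions and GC content come from GENCODE M21. Pairs of libraries in a group differed beyond sampling noise (chi-square per degree of freedom 5.09 to 27.6).

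Alternatives were other scalings, filters, DESeq2 1.42.0, limma-voom, a replicate block, length and GC offsets (splines with 5 degrees of freedom per library) and leaving out each library. The members and lists were chosen with earlier results of these data known. Beside the members, each list's largest called rise and fall with a mean of at least 1 CPM, its most read gene, all tested claudins, ratio partners, Il33 and Il1rl1 were named.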

Additional observations from a re-analysis of the deposited data

Results flagged for a closer look

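In 5 of 92 groups of 5 values, 1 library lay apart from the rest by Dixon's ratio, which chance does in about 1 of 20 groups. Cldn5 stood at 500.5 CPM in IL-33 library 1, where the other IL-33 libraries held 337 to 381 CPM. The Ocln to Epcam ratio was 0.1296 in IL-33 library 2 against 0.199 to 0.222 in the others. Cldn8 was at 0.691 CPM in 1 IL-33 library and 1.56 to 1.87 CPM in the rest. Pard6a reached 8.69 CPM in 1 IL-33 library, with 6.02 to 6.54 CPM in the others. Scgb1a1, the partner of Cldn10 in a ratio, was lowest at 10670 CPM in an IL-33 library, with 12100 to 12600 CPM in the others.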

How the results depend on the processing

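Of 200 values of the 10 tight junction genes under the alternatives, 196 kept their side of the threshold, and every called gene kept its direction. Among these values Cldn5, not called, changed sign with single libraries left out (-0.118 to 0.039). The other 4 were Cldn4 and Cldn5 with length and GC offsets, with and without the replicate block (-0.85 and -0.55 with it). The members counted 3 higher and 5 lower with each library left out. With the replicate block 11122 genes were called in place of 10975, the members gave the same 3 and 5, and no member changed its call. Pairing of libraries by replicate number was not evident, though these values cannot exclude it: deviations of same-numbered libraries correlated at -0.0505 to 0.265, and 1 of 5 numbers was its own best match. Other claudins called higher numbered 2 without the low-count filter, 1 with DESeq2 and 0 to 1 with single libraries left out, in place of 0. Without the filter more genes were tested. DESeq2 was run on all genes with any read, and the filter was applied anew with each library left out. The part of these changes in the calls was not tested. Scaffold and polarity genes called higher numbered 3 with length and GC offsets in place of 5 (4 with the block as well). Epcam turned to -0.096 with those offsets and -0.098 with the block as well. Per coding length Cldn5 made up 30.0% of claudin levels in controls and 44.1% in IL-33 lungs, Cldn18 54.1% and 33.6%, and Cldn3 7.37% and 8.75%. Depth limits Cldn2, with 3 to 23 reads per library, and Cldn4, with 27 to 58; a count of 0 allows 0.218 to 0.384 CPM in 1 library, counting error only.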

Other observations

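Several claudins were too scarce for the main test. Cldn22 had 18 reads over the 5 controls and 132 over the 5 IL-33 libraries, and was called higher with the low-count filter off (log2 2.85, edgeR adjusted p = 7.53e-06). All 995 bases of its exon lie within an exon of Wwc2 on the opposite strand, and no source names the strand setting of the counting. Whether the Cldn22 reads come from Wwc2 was not tested. Cldn13 had 0 reads in controls and 8 in IL-33 lungs, 5 of them in library 1 (edgeR adjusted p = 0.0223 with the filter off). Cldn19, known from kidney, went from 29 to 10 reads (edgeR adjusted p = 0.0376 with the filter off). Cldn11, known from myelin and testis, had 29 and 60 reads. No read fell on 8 of the 17 scarce family genes, among them Cldn14, Cldn16 and Cldn17. These genes were named after their values were seen.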
